A study of Homo sapiens with 4 samples.

Results

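The kinetochore and mitotic regulator genes described here are 46 named genes for centromere and kinetochore proteins, mitotic kinases and cyclins, spindle and cytokinesis factors, condensin subunits and regulators of sister chromatid cohesion. Genes named as kinesins and the core checkpoint genes were left out of the list, but the motor gene CENPE is in it. Of the 46 names, 45 were gene identifiers in the deposited tables, of 26485 identifiers in all, and the last, SGO1, is listed there under its older symbol SGOL1 and is given on its own. The rule uses names and functions and no measured value, but the genes were chosen with earlier results of these data known.

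RNA was sequenced from SW1736 and 8505C, cell lines derived from anaplastic thyroid cancer, an undifferentiated and fast-growing carcinoma. The groups were SW1736 given 1.5 µM DHT for 24 h, SW1736 given the vehicle DMSO, 8505C given 1.5 µM DHT for 24 h and 8505C given DMSO. DHT is here dihydrotanshinone, a plant diterpenoid from Salvia roots, rather than the androgen with the same abbreviation. Each group was 1 library, 4 libraries in all, so no difference within or between the lines has a replicate check or a test, and differences are given as levels and folds. A single fit pooled both lines.

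When a cell divides, the centromere is marked by a histone H3 variant, and a platform of CENP proteins built on it carries the outer kinetochore, which holds the spindle microtubules. Cyclin-dependent kinase 1 with B-type cyclins, the Aurora kinases and Polo-like kinase 1 drive the steps of mitosis, condensin compacts the chromosomes, and the protease separase releases the sister chromatids once its inhibitor securin has been degraded. The mRNAs of most of these proteins peak together in G2 and mitosis, and many of their promoters carry a CHR element, bound by the MuvB complex with B-MYB and FOXM1, near CCAAT boxes, bound by NF-Y. In bulk RNA, fewer cells in mitosis and less mRNA per cell cannot be told apart.

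The promoters are shown first, since many of them, though not all, carry the same motifs. RefSeq promoter windows on GRCh38.p14, an update of hg38, cover 250 bases before to 50 bases after a gene's start and were matched by symbol for 38 of the 45 genes. A CHR element (the letters TTTGAA, or the variant form with the letters TTCGAA, either strand) was present for 27 of these genes (71.1%), beside 15.3% of the 9141 expressed protein-coding genes with a window and 16.4% of all 35116 windows. The CCAAT box (either strand) was present for 29 (76.3%), beside 43.5% of the expressed genes and 34.6% of all windows. An E2F-like site (the letters TTTCGCG, or the variant form with the letters TTTGGCG, either strand) was present for 4 (10.5%), beside 6.65% and 3.19%. Where a gene had several windows, a match in any of them counted, and overlapping matches of different motifs were each counted. CHR and CCAAT occurred in the same window for 21 genes (55.3%), beside 6.42% of the expressed genes and 6.38% of all windows.

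Of the genes with both motifs in the 150 bases before the start, 16 in all, the 3 with the lowest and the 3 with the highest fold in DHT-treated SW1736 are printed, so that the letters can be read beside the values below. The bases run from 150 before the start up to the start, 5′ to 3′ on the gene's strand, and capitals mark CHR and CCAAT in either orientation (the reverse form of TTTGAA reads TTCAAA and that of the CCAAT box reads ATTGG). Where CHR and ATTGG overlap, as in MKI67 and CDCA8, the capitals run together. The start is that of the promoter window. For CDC25C (listed on chromosome 5 from 138285265 to 138338355) and CDC25B (chromosome 20, 3786772 to 3806121) it lies inside the listed gene. The folds are of the whole gene. The regions are chr1:197146670-197146819 (minus strand), chr10:128126424-128126573 (minus strand), chr5:138331805-138331954 (minus strand), chr20:3796160-3796309 (plus strand), chr1:37692366-37692515 (plus strand) and chr16:23678739-23678888 (plus strand), in the order of the lines.
ASPM: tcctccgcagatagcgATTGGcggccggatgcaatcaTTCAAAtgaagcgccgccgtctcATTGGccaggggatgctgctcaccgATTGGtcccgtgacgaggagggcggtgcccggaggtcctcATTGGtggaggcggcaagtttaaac
MKI67: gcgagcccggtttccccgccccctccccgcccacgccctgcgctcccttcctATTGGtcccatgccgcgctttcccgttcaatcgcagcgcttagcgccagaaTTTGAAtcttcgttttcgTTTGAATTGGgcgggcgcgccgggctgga
CDC25C: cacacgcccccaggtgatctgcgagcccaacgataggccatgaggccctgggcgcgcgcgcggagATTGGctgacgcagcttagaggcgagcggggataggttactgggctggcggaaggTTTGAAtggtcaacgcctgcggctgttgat
CDC25B: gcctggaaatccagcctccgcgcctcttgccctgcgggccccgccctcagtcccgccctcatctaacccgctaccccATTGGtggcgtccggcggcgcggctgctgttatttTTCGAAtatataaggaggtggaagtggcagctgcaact
CDCA8: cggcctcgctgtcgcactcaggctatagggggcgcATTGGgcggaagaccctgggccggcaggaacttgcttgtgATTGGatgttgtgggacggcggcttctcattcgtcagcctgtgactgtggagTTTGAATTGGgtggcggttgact
PLK1: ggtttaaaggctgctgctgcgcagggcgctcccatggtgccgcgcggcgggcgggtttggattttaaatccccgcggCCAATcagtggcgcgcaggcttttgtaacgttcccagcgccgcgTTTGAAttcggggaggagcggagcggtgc
The single CHR of PLK1 ends close to the start with the CCAAT box upstream of it, and CDC25C has the same arrangement with the box in the other orientation. ASPM has 4 CCAAT boxes, and its CHR lies farther upstream.

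Levels are the deposited TPM, a share of all transcripts scaled by transcript length. Folds are differences of log2(TPM + 1), DHT over DMSO unless said otherwise, and understate the change of low genes. They were set beside those of 11704 protein-coding genes averaging 1 TPM or more across libraries, called expressed genes here. All 45 genes were among these. Their mean level across libraries had a median of 90.9 TPM, beside 22.8 TPM over expressed genes with an mRNA length. Aligned depth, from the ratio of coverage to FPKM, was between 3.26 and 4.14 Gb, and without read numbers no counting interval can be given. The mean read depth over the 45 genes was lowest for CENPC in each library, at 9.21 in DHT-treated SW1736. Of the epithelial keratin genes KRT7, KRT8, KRT18 and KRT19 all were abundant in SW1736, and all but KRT19 in 8505C, where it was listed at 0, and CDH1 was under 1 TPM. The thyroid gene TSHR was listed at 0 in all 4 libraries, and of the thyroid transcription factors NKX2-1 was expressed in 8505C and PAX8 and FOXE1 in SW1736. PAX8 was at 117 TPM with DHT against 87.1 TPM with DMSO in SW1736, and FOXE1 at 22.3 TPM with DHT against 60.6 TPM with DMSO. NKX2-1 was at 174 TPM with DHT against 69.8 TPM with DMSO in 8505C. Of 10 immune markers 1 or 2 reached 1 TPM in a library, with sums between 1.43 and 5.17 TPM. Of 6 endothelial markers 2 (CDH5 and TIE1) reached 1 TPM in 8505C, where the sum was 207 TPM with DHT and 172 TPM with DMSO, and none in SW1736.

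In SW1736, most of the 45 mRNAs were lower with DHT than with DMSO. The lowest folds were those of the long mRNAs of the spindle gene ASPM, the kinetochore genes CENPF and CENPE, the proliferation antigen gene MKI67 and the topoisomerase gene TOP2A, whereas the ubiquitin-conjugating enzyme gene UBE2C was higher and PLK1 and AURKB were close to the DMSO level. At least 2-fold lower were 16 of the 45 (35.6%), beside 15.6% of all expressed genes, and at least 2-fold higher was none, beside 2.78%. At 1.5-fold, 27 were lower, beside 38.2%, and none higher, beside 4.7%. The median log2 fold was -0.77, beside -0.42 over all expressed genes, and 42 of the 45 were below 0, as were 9112 of the 11704. Centred on the median expressed gene, 5 of the 45 (ASPM, CENPE, CENPF, MKI67 and TOP2A) were 2-fold lower, beside 4.24% of expressed genes lower and 4.72% higher, and 12 lay above the median gene (AURKB, BIRC5, CCNB1, CDCA8, CENPH, CENPM, CENPN, FOXM1, MIS12, PLK1, PTTG1 and UBE2C). With FPKM in place of TPM the median of expressed genes was -0.20, 10 of the 45 were 2-fold lower, beside 6.02% of expressed genes, and 7 were above 0 (AURKB, CENPM, CENPN, FOXM1, PLK1, PTTG1 and UBE2C).

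In 8505C, none of the 45 was 2-fold higher or lower with DHT, beside 0.273% and 0.171% of expressed genes. At 1.5-fold the counts were likewise 0, beside 1.26% higher and 0.538% lower. The folds lay between -0.21 for NCAPG and 0.14 for CENPM, with a median of -0.04, beside -0.03 over all expressed genes. The fold of SW1736 was below that of 8505C for 43 of the 45 genes (95.6%), all but CENPN and UBE2C, and for 79.3% of expressed genes, and this difference between the lines was not tested. When limma was fitted over both lines with line as a block, 4 of the 45 were called lower with DHT, beside 0.214% of expressed genes, and none higher, beside 0.803%. These were MKI67, TOP2A, CENPF and ASPM, with adjusted p from 0.00563 for MKI67 to 0.0265 for ASPM in limma and mean log2 folds over the lines of -0.92, -0.82, -1.14 and -1.41. That fit had 1 residual degree of freedom and took the spread of every gene from the trend over all genes, so the difference between the lines in a gene did not enter its p, and all 4 had 8505C folds between -0.17 and -0.09. Without the block none of the 45 was called. Together the 45 genes held 0.510% of TPM with DHT and 0.721% with DMSO in SW1736, and 0.680% with DHT and 0.698% with DMSO in 8505C. Without UBE2C the shares were 0.408% with DHT and 0.646% with DMSO in SW1736.

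**Figure D1:**
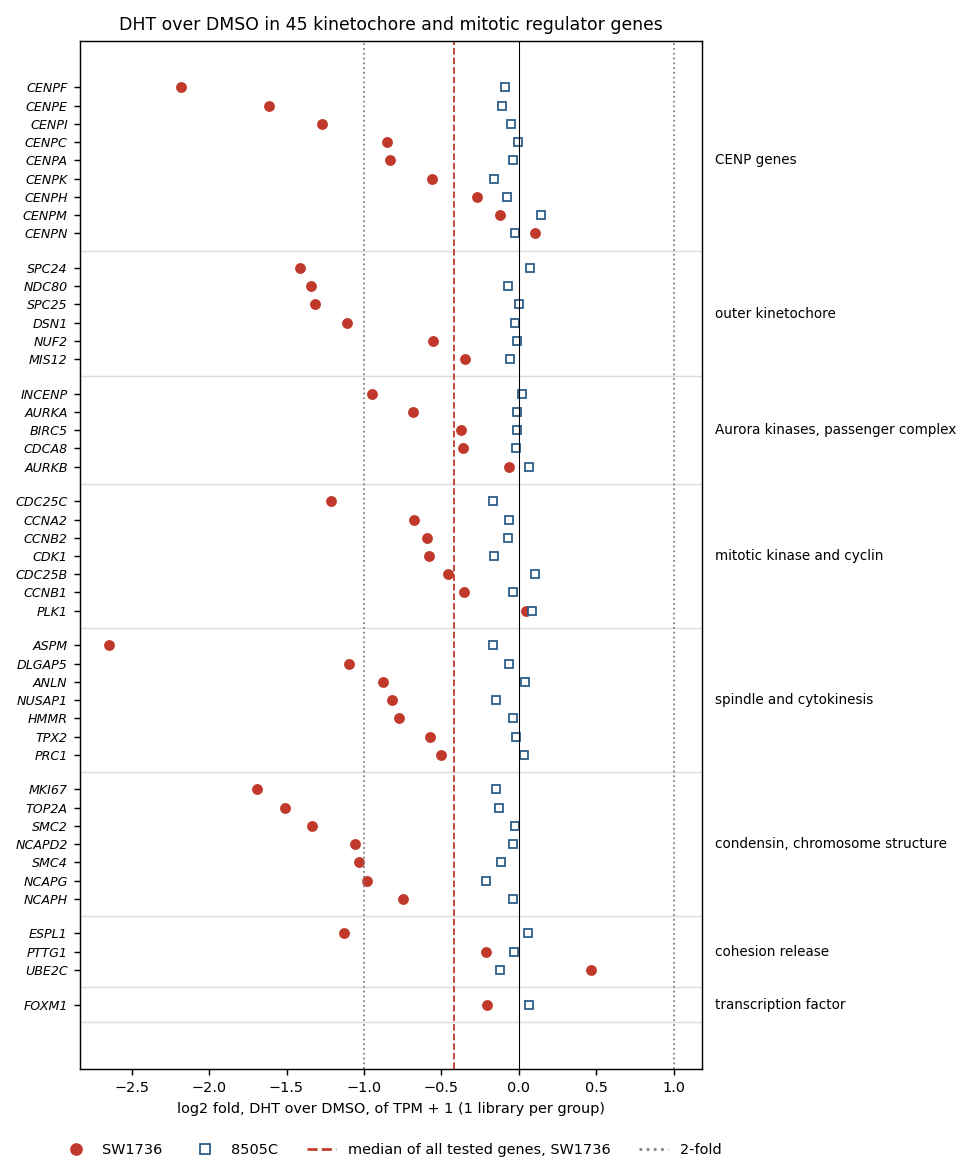
Log2 fold of TPM + 1, DHT over DMSO, for each of the 45 genes by role (1 library per group, no error bars); filled circles are SW1736, open squares 8505C, the dashed line the SW1736 median of all expressed genes (-0.42) and the dotted lines 2-fold. The SW1736 values spread from -2.65 for ASPM to 0.47 for UBE2C, while the 8505C values stay between -0.21 and 0.14.

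Among the 9 CENP genes, 3 were at least 2-fold lower in SW1736 (33.3%, beside 15.6% of expressed genes) and none higher, with a median log2 fold of -0.83. CENPF and CENPE, large proteins of the outermost kinetochore of which CENP-E is a motor, had the lowest folds. CENPF (chromosome 1, 214603189 to 214664571) stood at 19.5 TPM with DHT and 92.4 TPM with DMSO in SW1736, and at 66.7 TPM with DHT and 71.1 TPM with DMSO in 8505C. Its log2 fold was -2.18 in SW1736 and -0.09 in 8505C. CENPE was at 6.58 TPM with DHT and 22.2 TPM with DMSO in SW1736, and at 37.0 TPM with DHT and 39.9 TPM with DMSO in 8505C, with log2 folds of -1.61 and -0.11 in SW1736 and 8505C. For both genes the DHT-treated SW1736 library was the low one and the others were within 2-fold of each other.

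The mRNAs of inner kinetochore proteins spanned from -1.27 for CENPI to 0.10 for CENPN in SW1736. CENPI, a subunit of the inner kinetochore network, was at 15.3 TPM with DHT and 38.3 TPM with DMSO in SW1736, and at 19.4 TPM with DHT and 20.1 TPM with DMSO in 8505C, and here the DMSO library of SW1736 was the high one of the 4. CENPA, the histone H3 variant that marks centromeres, was at 28.1 TPM with DHT and 50.7 TPM with DMSO in SW1736, and at 69.4 TPM with DHT and 71.2 TPM with DMSO in 8505C. Its log2 fold in SW1736 was -0.83 and that of CENPC, which binds it, -0.85, both short of 2-fold. CENPK and CENPH, partners of CENPI, had -0.56 and -0.27. CENPM, likewise a partner, stood at 91.0 TPM with DHT and 99.1 TPM with DMSO in SW1736, and at 79.5 TPM with DHT and 71.8 TPM with DMSO in 8505C, and its 8505C fold of 0.14 was the highest of the 45. CENPN, which reads the CENP-A nucleosome, was one of the 3 genes above 0, at 81.3 TPM with DHT against 75.7 TPM with DMSO in SW1736 (0.10) and 57.1 TPM with DHT against 58.0 TPM with DMSO in 8505C (-0.02). CENPN overlaps the gene CMC2 in the tables, so reads could be shared. Relative to the median expressed gene of SW1736, CENPH and CENPM were at 0.15 and 0.30, above it.

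The outer kinetochore was the role with the lowest median in SW1736 (-1.21), with 4 of 6 genes 2-fold lower (66.7%, beside 15.6% of expressed genes). The NDC80 complex, the rod that binds microtubules, has 4 subunits, of which 3 had almost the same fold. SPC24 was at 74.0 TPM with DHT and 199 TPM with DMSO in SW1736, and at 116 TPM with DHT and 110.3 TPM with DMSO in 8505C, with a log2 fold of -1.41 in SW1736. NDC80 was at 40.0 TPM with DHT and 103 TPM with DMSO in SW1736, and at 71.9 TPM with DHT and 75.7 TPM with DMSO in 8505C, with -1.34 in SW1736. SPC25, which pairs with SPC24, was at 41.0 TPM with DHT and 104 TPM with DMSO in SW1736, and at 76.2 TPM with DHT and 76.0 TPM with DMSO in 8505C, with -1.32 in SW1736, and a further copy on an alternate haplotype was listed at 0 in each library. In each of the 3 the DHT library of SW1736 was the lowest of the 4, and in 8505C the folds lay between -0.07 and 0.07. NUF2, the partner of NDC80, had a log2 fold of -0.56 in SW1736 and -0.02 in 8505C. In the MIS12 complex, which joins the NDC80 complex to the CENP proteins, DSN1 was at 38.4 TPM with DHT and 84.1 TPM with DMSO in SW1736, and at 59.8 TPM with DHT and 60.9 TPM with DMSO in 8505C (-1.11 in SW1736), and MIS12 was at 14.5 TPM with DHT and 18.7 TPM with DMSO in SW1736, and at 32.3 TPM with DHT and 33.7 TPM with DMSO in 8505C (-0.35 in SW1736).

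Of the Aurora kinases and the chromosomal passenger complex, which corrects faulty attachments of kinetochores, no gene of 5 was 2-fold lower in SW1736, beside 15.6% of expressed genes. The median was -0.37. INCENP, the scaffold of the complex, had the lowest fold, -0.95 in SW1736. It stood at 55.5 TPM with DHT and 108 TPM with DMSO in SW1736, and at 95.7 TPM with DHT and 94.6 TPM with DMSO in 8505C. AURKB, its kinase, stood at 171 TPM with DHT and 179 TPM with DMSO in SW1736, and at 248 TPM with DHT and 237 TPM with DMSO in 8505C, with log2 folds of -0.07 and 0.07 in SW1736 and 8505C. The targeting subunits BIRC5 (survivin) and CDCA8 (borealin) had -0.37 and -0.36 in SW1736, and AURKA, the Aurora kinase of the spindle poles, -0.68. AURKA stood at 145 TPM with DHT and 233 TPM with DMSO in SW1736, and at 236 TPM with DHT and 239 TPM with DMSO in 8505C. The subunits of this complex thus spanned from -0.95 to -0.07, and AURKB, BIRC5 and CDCA8 were above the median expressed gene when centred on it.

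Among 7 genes for the kinases, cyclins and phosphatases of mitotic entry, 1 was 2-fold lower in SW1736 (14.3%, beside 15.6% of expressed genes) and none higher, with a median of -0.58. CDC25C, a phosphatase that activates CDK1, was at 10.9 TPM with DHT and 26.5 TPM with DMSO in SW1736, and at 23.4 TPM with DHT and 26.4 TPM with DMSO in 8505C, with log2 folds of -1.21 and -0.17 in SW1736 and 8505C. CDC25C overlaps FAM53C in the tables. Its relative CDC25B was at 180.0 TPM with DHT and 248 TPM with DMSO in SW1736, and at 212 TPM with DHT and 197 TPM with DMSO in 8505C, with -0.46 in SW1736 and 0.10 in 8505C, the second highest there. CDK1, the kinase that drives mitosis, was at 129 TPM with DHT and 194 TPM with DMSO in SW1736, and at 139.8 TPM with DHT and 157 TPM with DMSO in 8505C (-0.58 in SW1736). Its cyclin CCNB1 was at 256 TPM with DHT against 328 TPM with DMSO in SW1736. The cyclins CCNA2, CCNB2 and CCNB1 had -0.68, -0.59 and -0.36 in SW1736. PLK1, which acts from mitotic entry to cytokinesis, stood at 222 TPM with DHT and 215 TPM with DMSO in SW1736, and at 316 TPM with DHT and 299 TPM with DMSO in 8505C. Its log2 folds were 0.04 in SW1736 and 0.08 in 8505C, so it was not among the lower genes of SW1736, and it overlaps ERN2 in the tables. FOXM1, the transcription factor of this gene programme and the only one among the 45, was at 208 TPM with DHT and 241 TPM with DMSO in SW1736, and at 167 TPM with DHT and 159 TPM with DMSO in 8505C, with -0.21 in SW1736 by TPM and 0.02 by FPKM, and it overlaps RHNO1 in the tables.

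Spindle and cytokinesis genes were all below 0 in SW1736, 2 of 7 by 2-fold (28.6%, beside 15.6% of expressed genes), with a median of -0.82. ASPM, which acts at spindle poles (chromosome 1, 197084127 to 197146694), had the lowest fold of the 45 genes. It stood at 7.14 TPM with DHT and 50.0 TPM with DMSO in SW1736, and at 38.2 TPM with DHT and 43.0 TPM with DMSO in 8505C. Its level with DHT was 14.3% of that with DMSO in SW1736, a log2 fold of -2.65, beside -0.17 in 8505C. DLGAP5, a stabiliser of spindle microtubules, was at 38.7 TPM with DHT and 83.7 TPM with DMSO in SW1736, and at 118 TPM with DHT and 123 TPM with DMSO in 8505C (-1.09 in SW1736). ANLN, a scaffold of the cleavage furrow, had -0.88 in SW1736, and the microtubule-associated NUSAP1 and HMMR had -0.82 and -0.77. TPX2, the activator of Aurora A, was at 304 TPM with DHT and 453 TPM with DMSO in SW1736, and at 400.1 TPM with DHT and 405 TPM with DMSO in 8505C (-0.58 in SW1736). In 8505C the folds of the 7 spindle and cytokinesis genes lay between -0.17 for ASPM and 0.04 for ANLN. PRC1, which bundles the microtubules of the central spindle, had the highest fold of the group, -0.50 in SW1736. It stood at 139 TPM with DHT and 197 TPM with DMSO in SW1736, and at 277 TPM with DHT and 271 TPM with DMSO in 8505C.

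Condensin and chromosome structure genes had a median of -1.06 in SW1736 and -0.12 in 8505C. All 7 were at least 1.5-fold lower in SW1736, beside 38.2% of expressed genes, and 5 were 2-fold lower (71.4%, beside 15.6%). Most of these mRNAs are long. Relative to the median of expressed genes of like mRNA length (deciles, described below), the 7 lay between -0.85 for MKI67 and -0.32 for NCAPH, short of 2-fold lower. MKI67, whose product Ki-67 coats mitotic chromosomes, stood at 76.6 TPM with DHT and 249.7 TPM with DMSO in SW1736, and at 129 TPM with DHT and 144 TPM with DMSO in 8505C, with log2 folds of -1.69 and -0.15 in SW1736 and 8505C. TOP2A, which untangles the DNA of sister chromatids, was at 71.8 TPM with DHT and 206 TPM with DMSO in SW1736, and at 306 TPM with DHT and 334 TPM with DMSO in 8505C (-1.51 and -0.13). In both genes the low value was the DHT library of SW1736, whereas between the untreated lines TOP2A was higher in 8505C and MKI67 was lower.

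Of the 5 condensin subunits, SMC2, SMC4 and NCAPD2 were 2-fold lower in SW1736 by log2(TPM + 1), and NCAPG and NCAPH were not. SMC2, an ATPase with SMC4, was at 36.7 TPM with DHT and 94.0 TPM with DMSO in SW1736, and at 76.5 TPM with DHT and 78.0 TPM with DMSO in 8505C, a log2 fold of -1.33 in SW1736. SMC4 was at 155 TPM with DHT and 318 TPM with DMSO in SW1736, and at 235 TPM with DHT and 255 TPM with DMSO in 8505C, with -1.03, and overlaps IFT80 in the tables. The condensin I subunits NCAPD2, NCAPG and NCAPH had -1.06, -0.98 and -0.75 in SW1736. NCAPD2 stood at 119 TPM with DHT and 248 TPM with DMSO in SW1736, and at 198 TPM with DHT and 203 TPM with DMSO in 8505C. NCAPG stood at 26.5 TPM with DHT and 53.4 TPM with DMSO in SW1736, and at 70.7 TPM with DHT and 81.9 TPM with DMSO in 8505C. Its TPM with DHT was 49.7% of that with DMSO in SW1736, and only the fold of log2(TPM + 1) fell just short of 2-fold. Its -0.21 in 8505C was the lowest of the 45 there. NCAPG overlaps LCORL in the tables. NCAPH stood at 14.9 TPM with DHT and 25.8 TPM with DMSO in SW1736, and at 33.0 TPM with DHT and 33.8 TPM with DMSO in 8505C. The 5 subunits lay between -1.33 and -0.75 in SW1736 and between -0.21 and -0.03 in 8505C.

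Of the 3 genes for the release of cohesion, 1 was 2-fold lower in SW1736 (33.3%, beside 15.6% of expressed genes) and 1 was above its DMSO level. ESPL1, which encodes separase, was at 11.0 TPM with DHT and 25.2 TPM with DMSO in SW1736, and at 25.5 TPM with DHT and 24.5 TPM with DMSO in 8505C (-1.13 in SW1736). PTTG1, which encodes its inhibitor securin, had -0.21, with 380.3 TPM with DHT against 441 TPM with DMSO in SW1736, and has retrotransposed copies elsewhere that could share reads. UBE2C (chromosome 20, 45812576 to 45816957), the enzyme that supplies ubiquitin to the anaphase-promoting complex, stood at 1028 TPM with DHT and 744 TPM with DMSO in SW1736, and at 516 TPM with DHT and 563 TPM with DMSO in 8505C. Its log2 fold of 0.47 was the highest of the 45 in SW1736, and in 8505C it was -0.13. SGO1, the protector of centromeric cohesion listed as SGOL1, was at 9.26 TPM with DHT and 18.5 TPM with DMSO in SW1736, and at 19.5 TPM with DHT and 22.4 TPM with DMSO in 8505C, with -0.92 in SW1736 and -0.19 in 8505C, and it overlaps its antisense gene, whose reads cannot be told apart from its own without known strandedness.

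**Figure D2:**
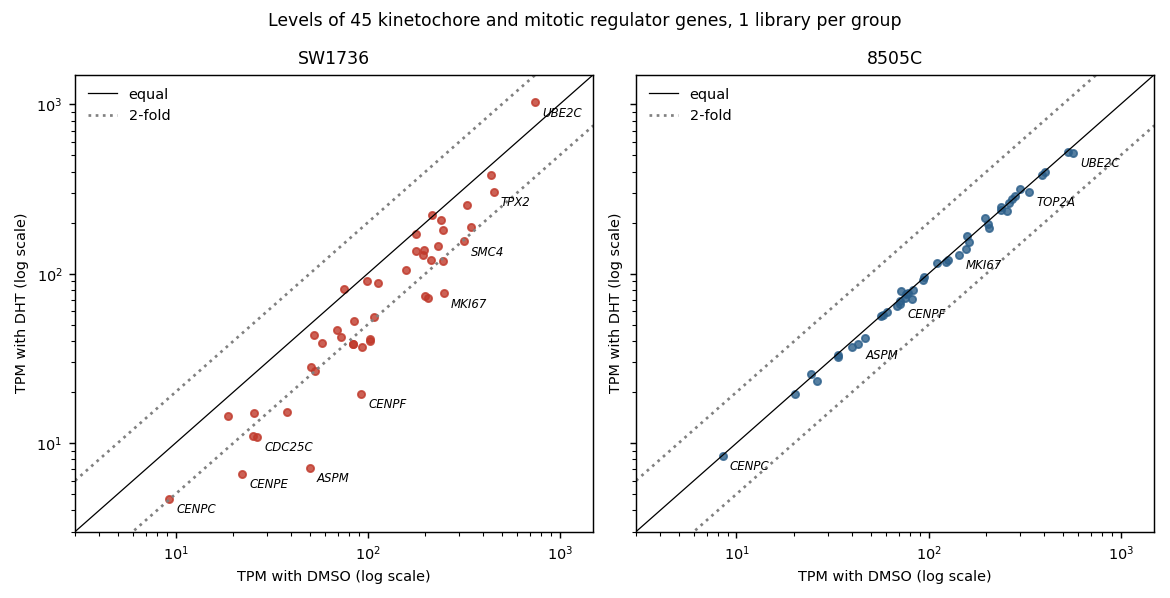
TPM with DHT (vertical, log scale) against TPM with DMSO (horizontal, log scale) for the 45 genes in SW1736 and 8505C; each point is a gene, 1 library per group, the solid line is equality and the dotted lines 2-fold. In SW1736 most points lie under the line, ASPM and CENPF farthest and UBE2C above it, and in 8505C they lie close to it.

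Within SW1736, longer mRNAs had lower folds. Across the 45 genes Spearman's rho between fold and length was -0.58 and Pearson's r with log2 length was -0.70, beside -0.43 and -0.35 over 11688 expressed genes with a length. The points share 2 libraries, and genes are not independent replicates. Lengths were those of the principal GENCODE 29 transcript. Of 3 classes of equal size by mRNA length, the long class (4389 bases or more) held 12 of the 45, which had a median log2 fold of -1.23, beside -0.72 for all expressed genes of that class, and all 12 were below that median. Of these 12, 9 were 2-fold lower, beside 29.2% of the class. In the middle class the 14 members had a median of -0.54, beside -0.45, and 2 were 2-fold lower (14.3% beside 12.2%). In the short class (up to 2458 bases) the 19 members had -0.58, beside -0.14, and 5 were 2-fold lower (26.3% beside 5.31%).

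Each gene was then set beside expressed genes of like mRNA length, in 10 classes of equal size (deciles). In SW1736, ASPM (10887 bases) lay -1.81 from the median of its own length decile and CENPF (10307 bases) -1.34. SPC25 (1354 bases), NDC80 (2172 bases), SPC24 (2315 bases) and CDC25C (2128 bases), which are short, lay -1.31, -1.14, -1.08 and -1.01 from theirs. These 6 were the genes at least 2-fold below the median of their length decile, beside 2.6% of expressed genes, and the median of the 45 on this scale was -0.37. CENPC (6940 bases) lay -0.10 and CENPE (8612 bases) -0.77 from theirs. Relative to genes of the same decile of GC content, 4 members were 2-fold lower, beside 3.46%, and the median was -0.22. The part that mRNA length or GC content had in the lower values was not tested. In 8505C rho between fold and length was -0.10 over the 45 genes, beside -0.26 over expressed genes, and rho between fold and GC content was 0.60, beside 0.47 over expressed genes, for folds that all lay within -0.21 and 0.14.

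**Figure D3:**
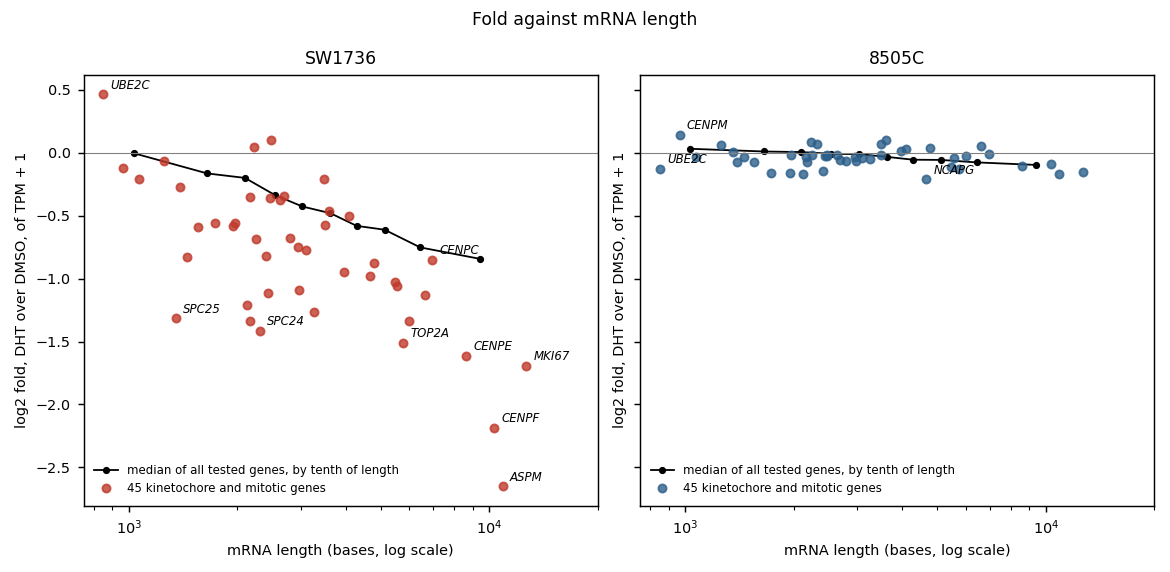
Log2 fold of TPM + 1, DHT over DMSO, against mRNA length in bases (log scale) for the 45 genes (coloured points) in SW1736 and 8505C; the black line joins the medians of all expressed genes in deciles of length. In SW1736 the line falls to -0.84 in the longest decile with ASPM and CENPF far under it and SPC25 and SPC24 far under its short end, and in 8505C the points stay near the line.

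The motifs of the promoters were then set beside the folds of SW1736. The 27 genes with a CHR had a median log2 fold of -0.95 with 12 at 2-fold lower, and the 11 with a window but no CHR had -0.68 with 4. Of all expressed genes 15.6% were 2-fold lower. Over all expressed genes with a window the median folds were -0.51 with and -0.42 without a CHR. For CCAAT the medians were -0.77 over 29 genes with a box and -1.11 over 9 without, beside -0.44 and -0.43 over expressed genes. For CHR and CCAAT in the same window they were -0.85 over 21 genes and -0.88 over 17 without the pair, beside -0.54 and -0.42 over expressed genes. ASPM and PLK1, whose promoters are printed above, both carry the motif pair and stood at -2.65 and 0.04. A match describes letters in a window and does not show that a factor binds there.

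Between the untreated lines all 45 genes were within 2-fold. In 8505C against SW1736, both with DMSO, none of the 45 was 2-fold higher, beside 9.97% of expressed genes, and none 2-fold lower, beside 12.6%. Among protein-coding genes averaging at least 5 TPM the shares were 8.07% and 10.7%, and the 45 are more abundant than most expressed genes. The median log2 fold of 8505C over SW1736 was -0.16, beside -0.05 over expressed genes. The highest were CENPE (0.82, 39.9 TPM in 8505C against 22.2 TPM in SW1736) and MIS12 (0.82, 33.7 TPM in 8505C against 18.7 TPM in SW1736). The lowest were CENPI (-0.90, 20.1 TPM in 8505C against 38.3 TPM in SW1736) and SPC24 (-0.84, 110.3 TPM in 8505C against 199 TPM in SW1736). At 1.5-fold, 4 were higher in 8505C and 4 lower, beside 18.9% and 24.2% of expressed genes. The 4 higher also included TOP2A (0.69) and NCAPG (0.61), and the 4 lower MKI67 (-0.79) and FOXM1 (-0.59). Relative to genes of like GC content 1 was 2-fold lower, beside 11.1%. For 22 of the 45 genes, among them CENPI, SPC24 and MKI67, the level of SW1736 with DHT was below both 8505C libraries and that with DMSO above both, as for 19.0% of expressed genes. This comparison shares its SW1736 library with the comparison of DHT and DMSO in SW1736, so these sets of folds are not independent.

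**Figure D4:**
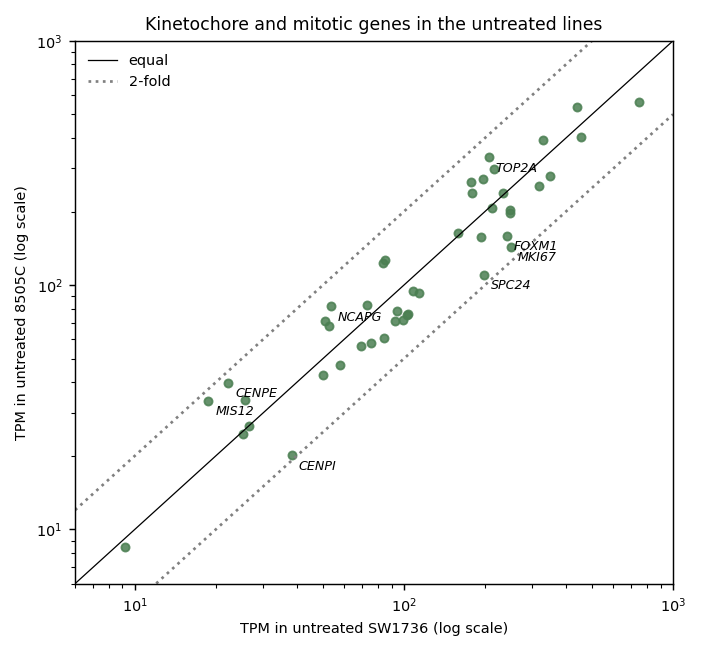
TPM in untreated 8505C (vertical, log scale) against TPM in untreated SW1736 (horizontal, log scale) for the 45 genes, 1 library each; the solid line is equality, the dotted lines 2-fold, and genes past 1.5-fold are named. All 45 points lie within the 2-fold lines, from -0.90 for CENPI to 0.82 for CENPE.

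Other genes of mitosis were read from lists of related function, likewise chosen with earlier results of these data known. In SW1736, 28 of 98 were 2-fold lower with DHT (28.6% beside 15.6% of expressed genes) and 1 was higher, with a median of -0.71. In 8505C none was 2-fold higher or lower, with a median of -0.08. Of 19 other kinetochore genes 2 were 2-fold lower in SW1736 (10.5%, under the 15.6% of expressed genes). These were CASC5, the older symbol of the scaffold gene KNL1, at 4.59 TPM with DHT against 23.1 TPM with DMSO in SW1736 (-2.11), and CENPQ (-1.03). The highest of that list were CENPT (0.00) and CENPP (-0.04), which both overlap other genes. Of 16 other condensin and cohesin genes 9 were 2-fold lower (56.25%, beside 15.6%) and none higher (median -1.03). Many of these mRNAs are long, and of the long class of expressed genes 29.2% were 2-fold lower. Relative to the median of their length decile, the 16 lay between -0.72 for ESCO2 and 0.19 for ESCO1, short of 2-fold lower. The cohesin regulator PDS5B was at -1.39 and the cohesin ATPase SMC3 at -1.24, and CDCA5 at -0.34 and NCAPH2 at -0.13 were the highest.

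Among 15 other genes of mitotic entry 4 were 2-fold lower in SW1736 (26.7%, beside 15.6% of expressed genes) and 1 higher (6.67%, beside 2.78%), with a median of -0.67. The higher one was WEE1, the kinase that inhibits CDK1, at 113 TPM with DHT and 47.1 TPM with DMSO in SW1736, and at 42.7 TPM with DHT and 43.5 TPM with DMSO in 8505C, a log2 fold of 1.25 in SW1736. The lowest were the cyclin F gene CCNF (-1.57) and CDC25A (-1.34), and CKS1B (0.08) came after WEE1. CDC25A and CDC25C, which act on the same kinase in the opposite sense, were 2-fold lower, but their relative CDC25B was at -0.46. PKMYT1 of the same list, which like WEE1 inhibits CDK1, was not higher (-0.16 in SW1736). What these folds mean for CDK1 was not tested. Of 14 other spindle and cytokinesis genes 5 were 2-fold lower (35.7%, beside 15.6%) and none higher (median -0.81). The lowest were ARHGAP11A (-1.65), which has a partial copy in ARHGAP11B, and CIT (-1.39), and the highest TROAP (-0.24) and TACC3 (-0.37).

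The anaphase-promoting complex is the ubiquitin ligase served by UBE2C, and its list had the median nearest 0 of the 6 lists in SW1736. Of 17 subunit and regulator genes 2 were 2-fold lower (11.8%, under the 15.6% of expressed genes) and none higher (median -0.50). These were FBXO5, which encodes its inhibitor EMI1, at 15.5 TPM with DHT against 56.9 TPM with DMSO in SW1736 (-1.81), and the scaffold subunit gene ANAPC1 (-1.28). UBE2S, the second ubiquitin-conjugating enzyme of the complex, had the highest fold (0.28), with 873 TPM with DHT against 717 TPM with DMSO in SW1736, followed by ANAPC15 (0.12). Of 17 genes for MuvB, MYBL2, NF-Y, E2F and pocket proteins 6 were 2-fold lower (35.3%, beside 15.6%) and none higher (median -0.69), with RBL1 at -1.71 and E2F8 at -1.54 the lowest. MYBL2, which encodes B-MYB, had -0.02, with 229 TPM with DHT against 232 TPM with DMSO in SW1736, and E2F4 at -0.06.

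**Figure D5:**
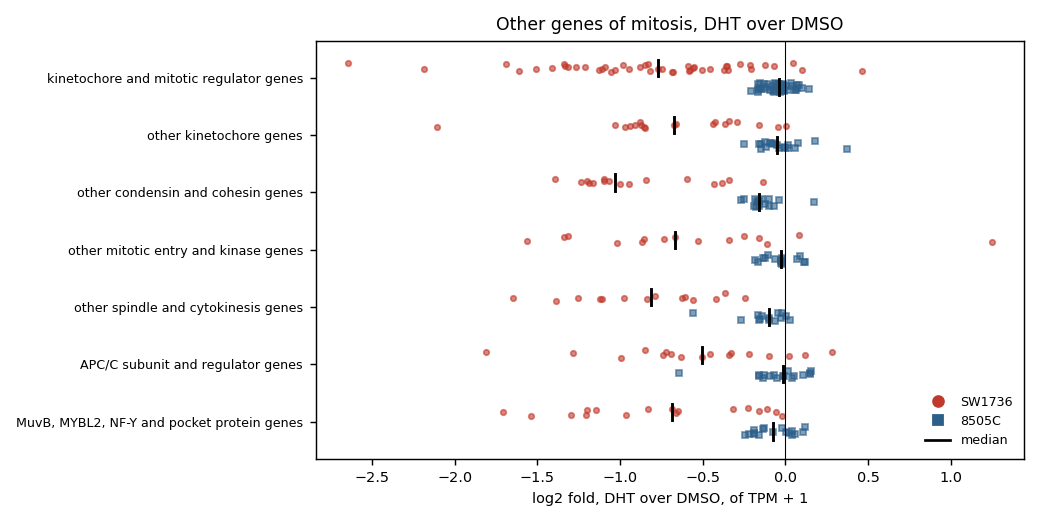
Log2 fold of TPM + 1, DHT over DMSO, for the 45 genes and 6 lists of other genes of mitosis with a mean of at least 1 TPM; each point is a gene, circles are SW1736, squares 8505C, and black bars are list medians. The SW1736 medians lie between -1.03 and -0.50 with WEE1 alone past 1, and the 8505C medians lie near 0.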

How the data were processed

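Total RNA was purified with RNeasy and made into libraries with the Universal Plus mRNA-Seq kit, per the labels' protocols. The submitters' processing notes name bcl2fastq 2.20, StringTie and hg38. For the aligner, the annotation and the StringTie version, nothing is stated in the sources used here. The deposited tables give, per the file headers, TPM, FPKM and coverage per gene and locus. The deposited TPM add up to 1000000 per library, so a gain of abundant mRNAs lowers all others. FPKM as deposited is scaled by length and mapped fragments, and coverage as deposited is a mean read depth, a signal without scaling by library. Summed FPKM was 511866 with DHT and 438583 with DMSO in SW1736, and 444082 with DHT and 437144 with DMSO in 8505C. Folds of SW1736 by TPM are therefore lower than those by FPKM. What set the DHT library of SW1736 apart was not tested.

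Rows of one identifier were summed. Of 26485 identifiers 25362 were matched to a RefSeq gene by symbol, through GENCODE 29 or by a synonym, 19027 of them protein-coding, of which 11704 averaged 1 TPM or more. Folds used log2(TPM + 1), and a gene counted as apart at 2-fold. The fold and count functions were tested on simulated data. The members and lists were chosen with earlier results of these data known. Values in all libraries are given for members at 2-fold, the highest and lowest fold of each role in SW1736 and the 3 highest and 3 lowest of 8505C, and of each list up to 2 highest and 2 lowest folds among genes averaging 5 TPM. The alternatives were other pseudocounts, filters, thresholds and scalings, all annotated genes as background, and members without shared loci. Python 3.11.15 with pandas 2.3.3, numpy 2.4.6, scipy 1.17.1 and matplotlib 3.10.9 was used, with limma 3.58.1 (trend, Benjamini-Hochberg adjustment, threshold 0.05) for 1 fit of DHT against DMSO over both lines.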

Additional observations from a re-analysis of the deposited data

How the results depend on the processing

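Under 10 alternatives planned and 4 added after the data were seen (SGOL1 included, the block for line left out of the limma fit, and folds relative to genes of the same decile of mRNA length or of GC content), 79 values of the planned and 23 of the added ones stayed within 1.5 times the count or 0.1 of the median. Many of these were counts of 0 that stayed 0, so the tally says little on the SW1736 counts of lower genes. The values that moved follow. For SW1736 the number of members 2-fold lower, 16, was 10 with FPKM, 5 centred on the median gene and 27 at 1.5-fold (beside 38.2% of expressed genes), and 6 and 4 relative to genes of the same length and GC content. The median of -0.77 was -0.67 with a pseudocount of 5, -0.54 with FPKM, -0.35 centred, -0.37 relative to length and -0.22 relative to GC content. For the untreated lines the counts of 0 became 4 higher and 4 lower at 1.5-fold, and 1 lower relative to GC content. Within a line, no paired analysis was possible because each group was 1 library. Over both lines, limma paired DHT with DMSO by line (a fit added after the data were seen) and called 4 of the 45 lower, against 0 without this replicate block. Without replicates or read numbers, the precision of each fold is unknown.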

Other observations

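The NDC80 complex holds its 4 subunits in equal number, and their mRNA levels by TPM were read in each library. NUF2 stood at 46.7 TPM with DHT and 69.1 TPM with DMSO in SW1736, and at 55.9 TPM with DHT and 56.5 TPM with DMSO in 8505C. NUF2 was above NDC80 with DHT and below it with DMSO in SW1736. NDC80 was at 40.0 TPM with DHT against 103 TPM with DMSO in SW1736. In 8505C, NUF2 was the lower of the pair with DHT and with DMSO. SPC24 was the highest subunit in all 4 libraries. The order of NUF2 and NDC80 has no replicate check.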
